A study of Mus musculus with 12 samples.

Results

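The mouse *Serpina3* cluster on chromosome 12 is a run of paralogs that correspond to the human gene *SERPINA3*, which encodes α1-antichymotrypsin. The genes described here are 7 of its members, *Serpina3c*, *Serpina3f*, *Serpina3g*, *Serpina3h*, *Serpina3i*, *Serpina3m* and *Serpina3n*, out of 43271 genes in the count table. They were taken by name and were chosen by their read counts across the 4 groups, since several of them had no reads at rest and many after cytokines. Their cytokine response is therefore given below as a description without a test. The table holds 7 further *Serpina3* genes (a, b, d-ps, e-ps, j, k and l-ps), which serve as the comparison within the cluster.

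The counts come from poly(A) RNA of MC38CEA, a mouse colon adenocarcinoma line, in 12 libraries. There were 4 groups with 3 libraries apiece: control shRNA or A17.2 (an shRNA against *Adam17*), each unstimulated or given human recombinant IL1β and mouse recombinant IFNγ, both at 10 ng/ml, over 6 h. All groups therefore share transduction with a pLKO lentiviral vector and puromycin selection, and the lines were pools of cells, not clones. By the submitters' description their control shRNA, SHC016, was toxic to cells and its cassette tended to be lost, while the study's methods name the non-targeting control SHC002. Which construct these libraries carried could not be settled here, and no cells without a vector were among them. A single targeting shRNA was sequenced, so in these libraries an effect of silencing *Adam17* and any other effect of A17.2 cannot be told apart. The study reports that A17.2 lowered ADAM10 as well as ADAM17. Replicates are numbered biological replicates in the labels, which do not say whether they were separate cultures, so p-values measure the spread between these samples, which may be technical. The label of replicate 1 of the stimulated control cells reports a corrupted raw file, but its counts were present and were used.

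The libraries held 16592831 to 35861103 counts. *Adam17* was at 73.7 CPM (counts scaled to library size by TMM) ± 4.54 (SD, n = 3) in unstimulated control cells and at 29.5 ± 1.56 in unstimulated A17.2 cells, and at 109 ± 17.4 and 44.9 ± 6.65 with cytokines (log2 fold change −1.28, adjusted p = 0.0010 with cytokines, edgeR). None of 8 epithelial markers, among them *Epcam*, *Cdh1* and *Krt8*, exceeded 1 CPM in any group, and they summed to at most 0.536 CPM. The defining markers of a colon epithelium were thus near the floor. The 5 hepatocyte markers, of the organ that makes most circulating serpins, summed to at most 0.281 CPM. Of 6 leukocyte markers, 5 were in the count table. Among these only *Itgam* exceeded 1 CPM, with a summed level between 1.37 and 4.89 CPM over the 4 groups. Of 5 fibroblast markers, 4 exceeded 1 CPM, and their summed level lay between 199.6 and 481.7 CPM in the control libraries and between 47.3 and 171 CPM in those of A17.2. In control cells that sum was mostly *Col1a2* (325 CPM at rest). In A17.2 cells *Col1a2* (59.4 CPM at rest) was only its largest part, ahead of *Pdgfra* (39.5 CPM). The collagen gene *Col1a1*, the only one called without the replicate number as a block, was higher in A17.2 cells (1.31 and 12.1 CPM at rest, log2 fold change 3.19, adjusted p = 0.038, and 3.40, adjusted p = 0.031 with cytokines, edgeR). With that block *Col1a2* was also called, lower in A17.2 cells (−2.85, adjusted p = 0.0080 at rest, and −2.40, adjusted p = 0.018 with cytokines, edgeR). *Dcn* was then called higher with cytokines. The blocked fit called 33.4% and 37% of all genes. The part of these markers in the results below was not tested.

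Serpins inhibit proteases by offering a reactive centre loop as bait. The protease cleaves the loop and is trapped when the loop folds into the body of the serpin. Humans have a single *SERPINA3* gene, an acute-phase gene, while the mouse locus has expanded into many copies that differ most in the loop and so in the proteases they can meet. *Serpina3g* (Spi2A), unlike most clade A serpins, stays inside the cell and is known as an intracellular inhibitor of lysosomal cathepsins in mouse leukocytes. *Serpina3n* is a secreted inhibitor of granzyme B and leukocyte elastase, known from reactive astrocytes. The GAS element is a short promoter sequence known from genes that respond to IFNγ, and IL1β acts through NF-κB.

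In GENCODE M21 (GRCm38) *Serpina3f* (104214544 to 104221129), *Serpina3g* (104236245 to 104241939), *Serpina3h* (104247905 to 104253669) and *Serpina3i* (104263122 to 104269372) lie side by side on the plus strand of chromosome 12. *Serpina3c* lies on the minus strand before them (104146382 to 104153870). *Serpina3m* (104338486 to 104394257) and *Serpina3n* (104406729 to 104414329) lie after them on the plus strand. *Serpina3h* is annotated as a transcribed pseudogene and the other 6 members as protein-coding. The exons of *Serpina3m* overlap those of *Serpina3k* on the same strand, so their reads cannot be told apart there. The transcripts of *Serpina3f* and *Serpina3g* are 88.8% identical, those of *Serpina3h* and *Serpina3i* 91.5%, and those of *Serpina3f* and *Serpina3n* 79.4%.

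This likeness limits how far reads can be assigned. Of all 100-base windows in the longest transcript, 96.4% occurred in no other gene for *Serpina3f*, 95.4% for *Serpina3g*, 95.8% for *Serpina3h*, 97.7% for *Serpina3i* and 99.8% for *Serpina3n*. With 50-base windows the shares were 89.3%, 84.0%, 75.6%, 84.6% and 93.1%. Neither the read length in the counting nor the treatment of reads that fit several genes is given in the sources used here, so values of the close copies are uncertain to that extent.

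RefSeq promoters (GRCm38.p6) were held for 5 of the 7 members, *Serpina3c*, *Serpina3f*, *Serpina3g*, *Serpina3i* and *Serpina3n*. The 250 bases before each start were searched on both strands for the GAS element TTCNNNGAA, for the ISRE core GAAANNGAAA and for the NF-κB consensus. A GAS element was found in *Serpina3f*, *Serpina3g* and *Serpina3i*, and not in *Serpina3c* or *Serpina3n*. Over all 27025 promoters of the table, 7.14% held one. The stretches below are shown because they hold the element or the bases aligned with it. Each is 50 bases, 5′ to 3′ on the strand of the gene, and capitals mark the 9 bases of the GAS element or the bases aligned with it.
Serpina3f: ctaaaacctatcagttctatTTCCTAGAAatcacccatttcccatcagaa
Serpina3g: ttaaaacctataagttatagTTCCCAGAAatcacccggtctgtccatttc
Serpina3i: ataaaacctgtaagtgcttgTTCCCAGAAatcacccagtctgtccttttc
Serpina3c: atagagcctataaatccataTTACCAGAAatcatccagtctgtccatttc
Serpina3n: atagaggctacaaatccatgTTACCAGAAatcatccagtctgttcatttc
The stretches lie at chr12:104214403-104214452 for *Serpina3f*, chr12:104236094-104236143 for *Serpina3g*, chr12:104263000-104263049 for *Serpina3i*, chr12:104153963-104154012 on the minus strand for *Serpina3c* and chr12:104406565-104406614 for *Serpina3n*.

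The same stretch was thus recognisable in all 5 promoters. Since the genes were chosen by their levels after cytokines, nothing is read from which of them hold the element. It began 121 bases before the RefSeq start of *Serpina3f*, 33 before that of *Serpina3g* and 102 before that of *Serpina3i*. All distances in this paragraph count from the RefSeq start, which for f and i is also the GENCODE start. For g the stretch shown ends at 104236143, 4 bases before the RefSeq start, while the GENCODE start lies further on, at 104236245. Distances from the GENCODE start of g are therefore longer. *Serpina3g* and *Serpina3i* also held an NF-κB consensus, GGGGGTTTCC beginning 85 bases and GGGGTTTTCC beginning 154 bases before the start, which did not overlap the GAS element. No match to it was found in *Serpina3f*, *Serpina3c* or *Serpina3n*, and 3.74% of all promoters held one. The ISRE core was in none of the 5, against 3.05% of all promoters. A match is a run of letters and not a measured binding site.

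At rest the cluster was almost without reads. *Serpina3f* and *Serpina3h* had 0 reads in all 6 unstimulated libraries, which allows 3 counts over a group, or up to 0.0364 CPM with the control shRNA and 0.0338 CPM with A17.2. *Serpina3g* had 2, 1 and 0 reads in control replicates 1 to 3 and 0, 2 and 0 in A17.2 cells. *Serpina3i* had 1 read in control replicate 1 and 0 in the other 5 unstimulated libraries. All 7 members together summed to 2 to 5 reads per library in unstimulated control cells and to 4 to 11 in unstimulated A17.2 cells. These bounds cover counting error only.

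With cytokines *Serpina3f* had 1835, 1848 and 1125 reads in control cells, or 109, 72.5 and 52.8 CPM. In A17.2 cells it had 3323, 1861 and 1704 reads, or 101, 80.7 and 58.9 CPM. Every stimulated library lay far above every unstimulated one, and the stimulated groups overlapped. The level after cytokines was at least 2078-fold higher in control cells and at least 2402-fold higher in A17.2 cells, counting 3 reads over the group at rest. Without replicate 1 of the unstimulated control cells, the deepest of that group, the first bound was 1138, and without replicate 1 of the unstimulated A17.2 cells the second was 1577.

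*Serpina3g*, the cathepsin inhibitor, had 1623, 1882 and 1031 reads in stimulated control cells, or 96.7, 73.9 and 48.4 CPM. In stimulated A17.2 cells it had 1886, 1054 and 1232 reads, or 57.4, 45.7 and 42.6 CPM. The ranges overlapped, with control replicate 3 inside the A17.2 range. The ratio to the level at rest was 1961 in control cells (95% counting interval 671 to 9512, from 3 reads at rest) and 2183 in A17.2 cells (604 to 18029, from 2 reads). Both ratios rest on single reads and moved to 3222 and to a bound of 978 when 1 unstimulated library (control replicate 1 and A17.2 replicate 2, respectively) was left out.

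*Serpina3i* had 109, 70 and 45 reads in stimulated control cells and 242, 102 and 96 in stimulated A17.2 cells, or 6.49, 2.75 and 2.11 CPM and 7.37, 4.42 and 3.32 CPM. The groups overlapped. The ratio to rest in control cells was 291 (51.6 to 11525), and without the library that held the only read at rest it became a bound of at least 53.0-fold. In A17.2 cells it was at least 153-fold higher, or at least 101-fold without replicate 1 of the unstimulated group.

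*Serpina3h*, the transcribed pseudogene, had 47, 23 and 16 reads in stimulated control cells and 68, 24 and 19 in stimulated A17.2 cells, or 2.80, 0.903 and 0.751 CPM and 2.07, 1.04 and 0.657 CPM. These groups overlapped as well. It was at least 37.2-fold higher than at rest in control cells and at least 38.7-fold higher in A17.2 cells. These bounds fell to 20.4 without replicate 1 of the unstimulated control cells and to 24.5 without replicate 1 of the stimulated A17.2 cells. Its reads amounted to 1.12 to 2.56 per 100 reads of *Serpina3f*, with which it shares sequence windows, and the part of reads from *Serpina3f* or *Serpina3g* in its count was not tested.

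*Serpina3n*, the granzyme B inhibitor, stayed at few reads. It had 0, 2 and 0 reads in unstimulated control cells and 14, 6 and 14 with cytokines, and 7, 0 and 8 reads in unstimulated A17.2 cells and 44, 12 and 9 with cytokines. In both kinds of cell every stimulated library was above every unstimulated one. The ratio was 22.0 (5.65 to 189) in control cells, or 11.2 as a bound without replicate 2 of the unstimulated group, which held both reads. It was 4.53 (2.56 to 8.56) in A17.2 cells, where replicate 1 of the stimulated group carried most of the reads and the ratio without it was 2.39.

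*Serpina3c* and *Serpina3m* had too few reads to show a response. *Serpina3c* had 0 to 6 reads in every library, with ratios of 3.24 (0.531 to 34.0) in control cells and 4.19 (0.835 to 40.5) in A17.2 cells. *Serpina3m* had 0 to 3 reads in 11 libraries and 8 in replicate 1 of the stimulated A17.2 cells. Their intervals, which cover counting error only, include 1 where a ratio could be given. These reads are too few to show or exclude a change, and one of the size seen in *Serpina3n* is within the intervals of *Serpina3c*.

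**Figure D1:**
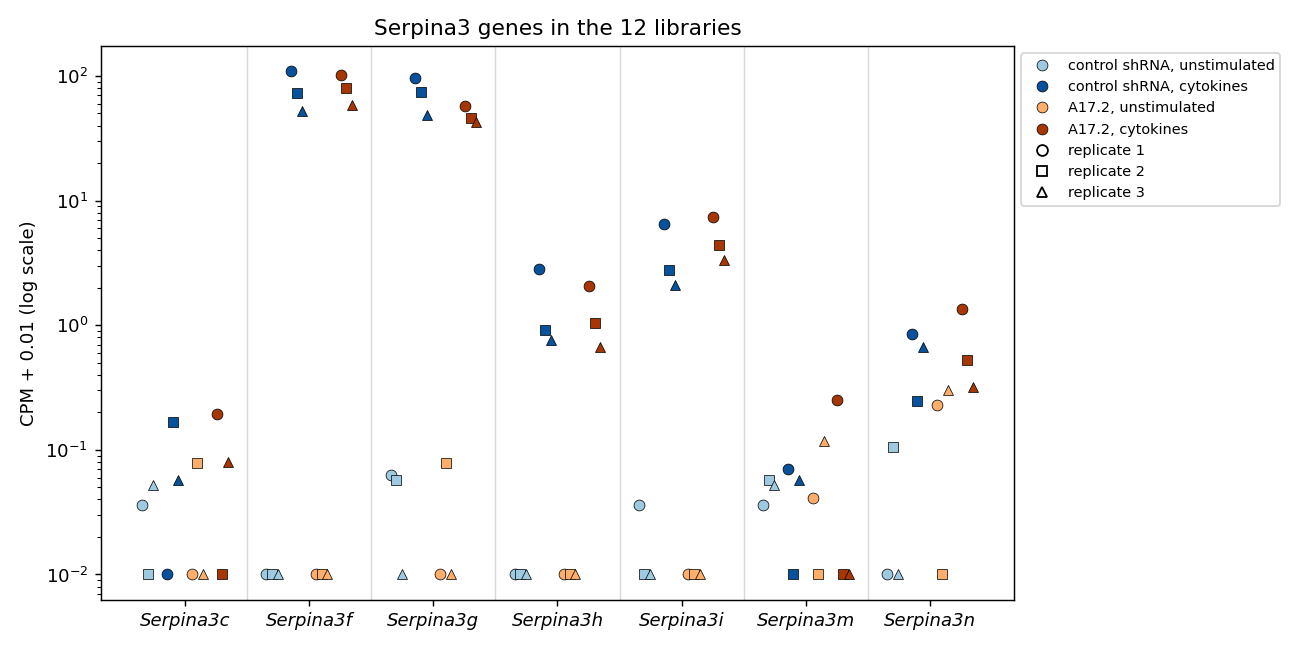
Level of the 7 *Serpina3* genes in each of the 12 libraries, as CPM plus 0.01 on a log axis, coloured by group and with a marker shape for each replicate number. The genes f and g go from at most 0.0686 CPM at rest to between 42.6 and 109 CPM with cytokines, h and i to between 0.657 and 7.37 CPM, while c and m stay below 0.25 CPM.

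The other *Serpina3* genes were counted for comparison along the cluster. *Serpina3e-ps*, an unprocessed pseudogene before *Serpina3f*, had 0 reads at rest and 11, 5 and 7 reads in stimulated control cells and 6, 9 and 3 in stimulated A17.2 cells, at least 9.94-fold and 6.28-fold higher. The part of reads from its copies in this count was not tested, and 78.4% of its 50-base windows were its own. The genes a, b, d-ps, j, k and l-ps had 0 to 6 reads summed over the 3 libraries of any group, too few to show or exclude a response.

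Levels of different genes were compared as CPM per kb of exon. In stimulated control cells *Serpina3g* (34.7 ± 11.5 CPM per kb, SD, n = 3) and *Serpina3f* (34.2 ± 12.5) came first, followed by *Serpina3i* (1.70 ± 1.06), *Serpina3h* (1.04 ± 0.796), *Serpina3n* (0.279 ± 0.149), *Serpina3c* (0.0307 ± 0.0364) and *Serpina3m* (0.0206 ± 0.0183). The neighbours f and g, i and h, and c and m overlapped over the 3 libraries. The step from f and g, lowest at 23.0, to i, highest at 2.92, did not. *Serpina3h* (lowest 0.523) lay above *Serpina3n* (highest 0.404).

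In stimulated A17.2 cells *Serpina3f* (35.0 ± 9.22 CPM per kb) stood before *Serpina3g* (23.1 ± 3.71), followed by *Serpina3i* (2.26 ± 0.940), *Serpina3h* (0.876 ± 0.509), *Serpina3n* (0.351 ± 0.263), *Serpina3m* (0.0472 ± 0.0818) and *Serpina3c* (0.0379 ± 0.0417). The ranges of f and g overlapped (25.7 to 44.2 and 20.2 to 27.3), as did those of h and n (0.458 to 1.44 and 0.151 to 0.649). *Serpina3i* was lowest at 1.49, just above the highest value of *Serpina3h*. The genes f and g together held 96.4% of the reads of the 7 members in stimulated control cells and 94.6% in stimulated A17.2 cells.

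**Figure D2:**
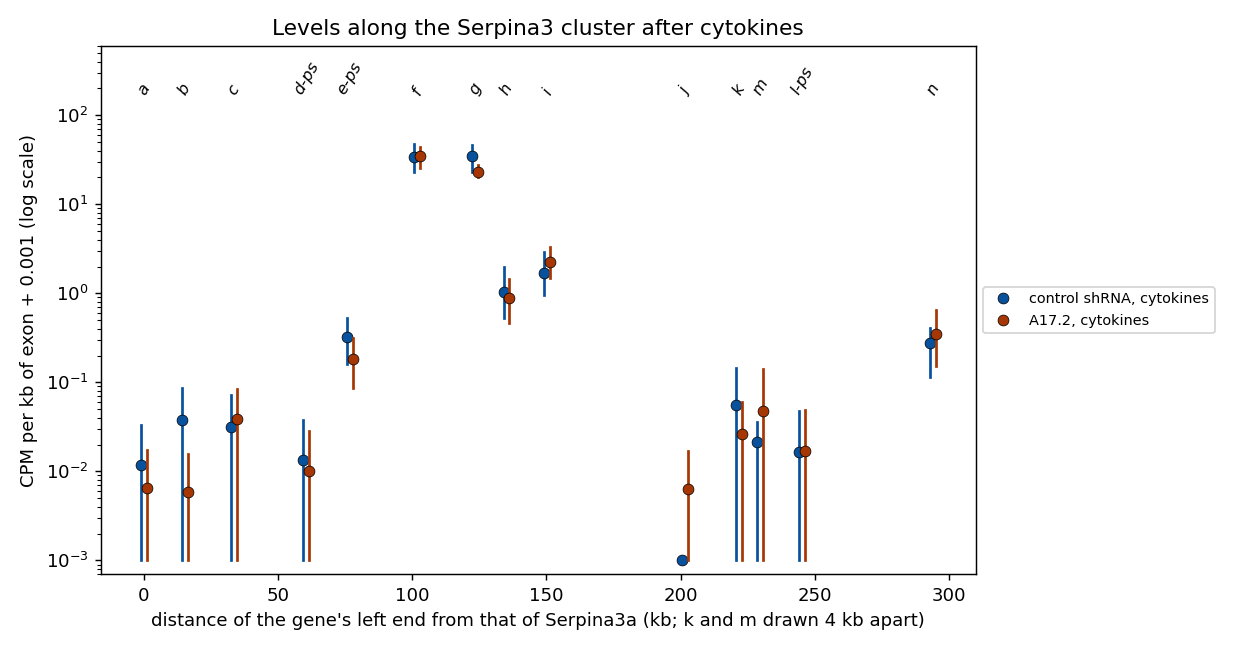
Mean level after cytokines of the 14 *Serpina3* genes, as CPM per kb of exon plus 0.001 on a log axis, against the distance of each gene from *Serpina3a* in kb; points are means of 3 libraries and bars run from the lowest to the highest library. The genes f and g stand above all others at means of 23.1 to 35.0 CPM per kb, i follows at 1.70 and 2.26, and the ranges of h overlap those of e-ps in control cells and of n in A17.2 cells.

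Whether A17.2 altered these levels is the comparison the rule did not use. Of the 7 members, 5 (f, g, h, i and n) passed edgeR's filter on low counts, and they passed through the stimulated groups. Without cytokines f, g, h and i had at most 3 reads in either group, so no call was possible for them. Over all 15649 genes tested, 6.43% were called. *Serpina3n* alone could be compared, with a log2 fold change of 2.53 (SE 1.38, adjusted p = 0.37, edgeR) from 15 reads in A17.2 cells and 2 in control cells. Replicate 2 of the A17.2 cells had 0, so the groups overlapped. The value ran from 1.80 without replicate 1 of the unstimulated control cells to 5.24 without replicate 2, which held both control reads (adjusted p 0.22 to 0.60 over the libraries left out, edgeR). With the replicate number as a block it was 2.67, or 6.35-fold (95% interval 1.03 to 39.2). That interval leaves out 1, but the gene was not called (adjusted p = 0.11, edgeR).

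With cytokines 0 of the 5 were called (lowest adjusted p = 0.29, edgeR, 0 at an unadjusted p under 0.05, and 0 by DESeq2), against 6.85% of all genes tested. That background share itself rests on single libraries: the count behind it, 1072 genes, fell to between 304 (without replicate 2 of the control cells) and 658 when any of the 6 stimulated libraries was left out. The fold change of A17.2 over control was 1.03 for *Serpina3f* (95% interval 0.629 to 1.68), 0.666 for *Serpina3g* (0.426 to 1.04), 0.862 for *Serpina3h* (0.296 to 2.51), 1.34 for *Serpina3i* (0.623 to 2.88) and 1.29 for *Serpina3n* (0.348 to 4.80). The intervals of all 5 leave out a fall of the size of the *Nos2* point estimate, h only narrowly. That estimate has an error of its own (SE 0.22 on the log2 scale). A fall like that of *Nos2* is therefore not excluded for h or n. *Nos2* encodes the inducible nitric oxide synthase that the study followed. It stood at 909.5 ± 140 CPM with the control shRNA and 249.9 ± 28.6 CPM with A17.2 (log2 fold change −1.86, adjusted p = 0.0010, edgeR). The study reports no fall of *Nos2* after CRISPR/Cas9 knockdown of *Adam17*. The summed level of the 7 members was 157 ± 56.0 CPM with the control shRNA and 136 ± 32.1 CPM with A17.2.

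The replicate numbers paired the samples: deviations of same-numbered libraries from their group means correlated in every pair of groups. In *Serpina3f*, *Serpina3g*, *Serpina3h* and *Serpina3i* replicate 1 was the highest and replicate 3 the lowest of both stimulated groups. Within numbers, *Serpina3g* in A17.2 cells was 0.594, 0.619 and 0.881 times its control, lower in 3 of 3 pairs. With the replicate number as a block its log2 fold change was −0.54 (SE 0.13, adjusted p = 0.0039, edgeR), or 0.685-fold (0.567 to 0.828). That fit called 1 of the 5 members, *Serpina3g*, but also 37% of all genes tested, so the share among the members is not above the background.

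The other members kept to their side of the threshold in the blocked fit. *Serpina3f* was 0.925, 1.11 and 1.12 times its control, with a blocked fold of 1.05 (0.905 to 1.21, adjusted p = 0.63, edgeR). *Serpina3i* was 1.13, 1.61 and 1.57 times its control, higher in 3 of 3 pairs. Its blocked fold was 1.40 (1.03 to 1.91), an interval that leaves out 1, with an adjusted p of 0.081 (edgeR). *Serpina3h* and *Serpina3n* were higher in some pairs and lower in others.

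**Figure D3:**
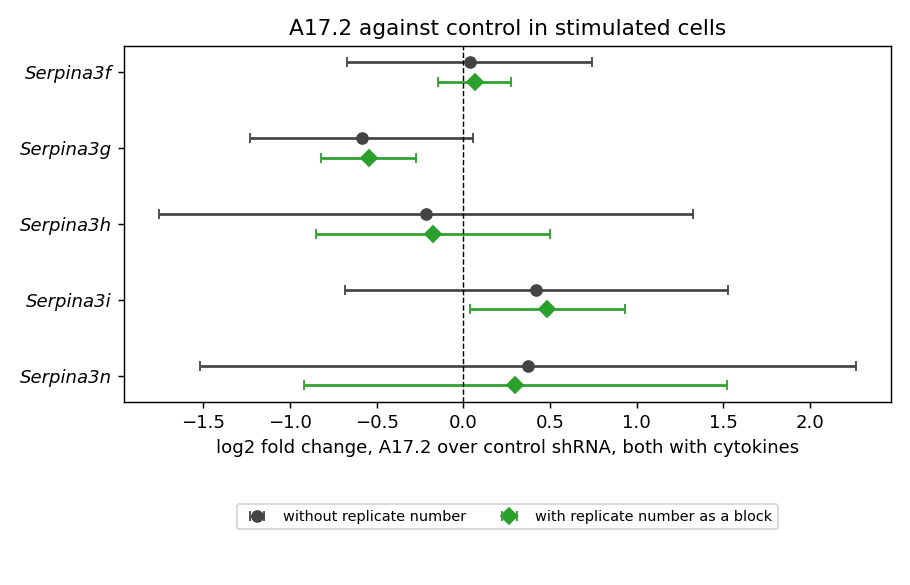
Log2 fold change of A17.2 over control shRNA, both with cytokines, for the 5 tested *Serpina3* genes, with 95% intervals, in the fit without the replicate number (dark circles) and with it as a block (green diamonds). The blocked interval of g lies below 0 (fold 0.567 to 0.828), that of i lies just above 0 (fold 1.03 to 1.91, not called after adjustment), and those of f, h and n span 0.

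The balance of the 2 leading genes can be read within each library, where depth and scaling cancel. This measure was chosen after the values were seen. *Serpina3g* made up 46.9%, 50.5% and 47.8% of the reads of f and g in stimulated control cells, with exact binomial 95% intervals from 45.3 to 52.1%. In stimulated A17.2 cells it made up 36.2%, 36.2% and 42.0%, with intervals from 34.4 to 43.8%. The groups did not overlap, and the mean difference was −10.3 percentage points, lower in 3 of 3 pairs. A two-sided exact permutation test gave p = 0.10, the smallest that 3 against 3 libraries allow (adjusted p = 0.25 over 5 such measures). This test and those below took the libraries as unpaired and did not use the replicate numbers.

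*Serpina3i* shifted against *Serpina3g* in the other direction, with 6.72, 3.72 and 4.36 reads per 100 reads of *Serpina3g* in control cells and 12.8, 9.68 and 7.79 in A17.2 cells (exact permutation p = 0.10, the smallest possible). Against *Serpina3f* it had 5.94, 3.79 and 4.0 reads per 100 in control cells and 7.28, 5.48 and 5.63 in A17.2 cells, which overlapped between groups (p = 0.30, exact permutation test). Within numbers it was higher in 3 of 3 pairs, by 1.34, 1.69 and 1.63 reads per 100. For *Serpina3h* per 100 reads of f or g the exact permutation p was 0.60. None of these passes 0.05, which the design cannot reach.

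**Figure D4:**
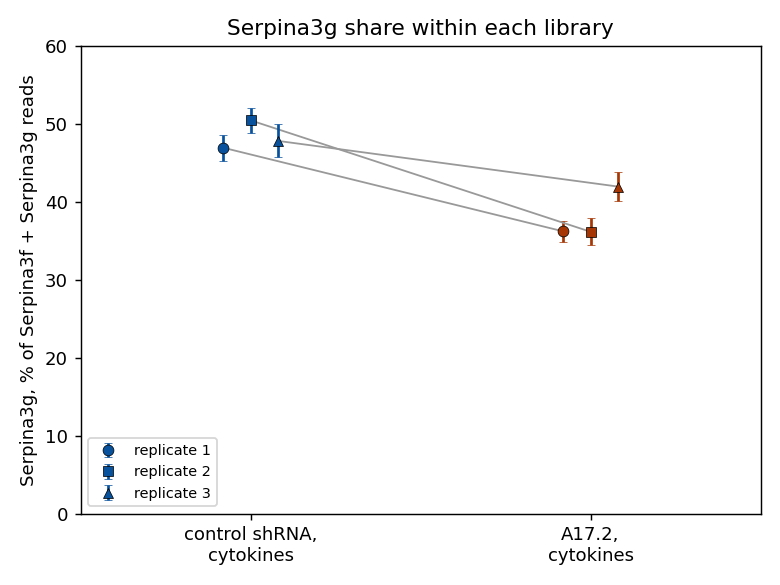
Share of *Serpina3g* among the reads of *Serpina3f* and *Serpina3g* in each stimulated library, in percent, with exact binomial 95% counting intervals. Lines join libraries of the same replicate number. The 3 control libraries lie between 46.9 and 50.5% and the 3 A17.2 libraries between 36.2 and 42.0%.

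The difference between the cytokine responses of both kinds of cell needs a level at rest. With at most 3 reads at rest in control cells for each of the 5 members, the interaction could not be called for them and no value is given. Over all genes tested it was called for 0% by edgeR without the replicate block, with 209 genes at an unadjusted p under 0.05. It was called for 26 genes by DESeq2. By edgeR it was called for 65 genes (0.415%) with the replicate block and for 28 with no filter on low counts.

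The levels of other genes set the members in context. Over the 12 libraries, the profiles most like *Serpina3f* by log2 CPM were *Batf2* (Pearson r = 0.998), *Fam26f* (0.996) and *Upp1* (0.994). Those most like *Serpina3g* were *Fam26f* (0.995), *Batf2* and the chemokine gene *Cxcl9* (both 0.993). *Serpina3h* was most like the complement genes *C4b* (0.994) and *C3* (0.993) and like *Ubd* (0.992), and *Serpina3i* like *Slc6a19* (0.997), *Cd274*, which encodes PD-L1 (0.994), and *Trim26* (0.993). *Serpina3n* had looser neighbours, *2310001H17Rik* (0.925), *Dnajc16* (0.890) and *Cd40* (0.875). Among themselves f, g, h and i correlated at 0.977 to 0.997 and *Serpina3n* with them at 0.770 to 0.830. The libraries share 2 treatments, so these values describe mostly the step between unstimulated and stimulated cells.

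Of 26 genes of IFNγ, IL1 and IL6-family signalling, 25 were tested. With cytokines 12 rose and none fell in control cells, where 3.14% of all genes rose, and 13 rose and none fell in A17.2 cells, where 3.85% rose. The median log2 fold change of the list was 1.01 in control and 0.89 in A17.2 cells, against −0.04 and −0.05 over all genes tested. *Socs1*, a feedback inhibitor of JAK signalling, rose by 3.26 on the log2 scale (adjusted p = 7.1e-06, edgeR) in control cells and 3.04 in A17.2 cells, and *Irf1*, a transcription factor gene that responds to interferons, by 3.01 and 4.58. Between A17.2 and control cells *Irf1* (log2 fold change −1.59, adjusted p = 0.00095, edgeR) and the receptor gene *Ifngr1* (−0.97, adjusted p = 0.044, edgeR) were lower at rest. These are 2 of 25, near the 6.43% of all genes. With cytokines 1 of 25 was called, *Il6st*, higher in A17.2 cells (0.78, adjusted p = 0.036, edgeR), against 6.85% of all genes. *Il1rap*, the next in order, had 0.72 (adjusted p = 0.096, edgeR). With the replicate block 5 were higher and 5 lower at rest, where that fit called 33.4% of all genes. With cytokines 6 were higher and 5 lower, where it called 37%, *Il1rap* among the higher (adjusted p = 0.00097, edgeR).

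Other serpins were counted for comparison. The clade A region around the cluster gave 14 genes in the table (*Serpina1* copies, *Serpina5*, *Serpina6* and others, and *Gsc*, which is not a serpin). Only *Serpina11* was tested, at 0.587 to 1.24 CPM, and it was called in no comparison. Of 16 clade B serpins, which are mostly intracellular, 7 were tested, with a median log2 fold change of A17.2 over control of −0.92 at rest and −0.54 with cytokines, against −0.01 and 0.02 over all genes. In either state 1 was higher, 1 was lower and 5 were not called, against 6.43% and 6.85% of all genes called in either direction. With the block 2 were higher and 2 lower in either state, where that fit called 33.4% and 37% of all genes. *Serpinb9*, a granzyme B inhibitor, rose with cytokines by 1.19 and 1.54 on the log2 scale in control and A17.2 cells and was lower in A17.2 cells both at rest (−1.20, adjusted p = 0.0017, edgeR) and with cytokines (−0.85, adjusted p = 0.012, edgeR). *Serpinb6b* was higher in A17.2 cells (4.74 and 4.11, without and with cytokines) and *Serpinb1b* had 1.44 with cytokines in both (adjusted p 0.14 and 0.15, edgeR). With the block it was called in both (adjusted p 0.016 and 0.039, edgeR), where 19.3% and 17.6% of all genes were.

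Among 14 protease genes that serpins of this kind can meet, 3 had no read and 4 were tested. *Gzmb*, *Ctsg* and *Cma1* had no reads, while the lysosomal cathepsin genes *Ctsb* and *Ctsl* were at 419 to 1144 CPM in the 4 groups. *Ctsh* was higher in A17.2 cells at rest (log2 fold change 1.61, adjusted p = 0.034, edgeR) and with cytokines (1.68, adjusted p = 0.029, edgeR). *Ctss* was lower in A17.2 cells at rest (−3.34, adjusted p = 0.029, edgeR). With the block 2 of the 4 were higher and 2 lower at rest, and 2 were higher and 1 lower with cytokines. That fit called 33.4% and 37% of all genes. In it *Ctsb* was lower in A17.2 cells (−0.48, adjusted p = 0.0064 at rest, and −0.40, adjusted p = 0.018 with cytokines, edgeR). *Ctsl* was higher (0.82, adjusted p = 0.00075 at rest, and 1.23, adjusted p = 3.1e-05 with cytokines, edgeR). None of the 4 was called with cytokines against none in either kind of cell, except *Ctss* in A17.2 cells with the block (log2 fold change 2.49, adjusted p = 0.037, edgeR).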

How the data were processed

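For 12 libraries the authors deposited read counts by gene symbol, without normalization, and 2 tables of their own comparisons with fold changes and p-values, which were not used. The submitters' processing notes name mm10. Aligner, counter, annotation, read length and strand setting: not given in the sources used here. The tests were run with edgeR 4.0.16 under R 4.3.3 (quasi-likelihood test, TMM, filterByExpr with its default minimum count of 10, 1 fit over the 4 groups, Benjamini-Hochberg adjusted p under 0.05 over all 15649 genes that passed). Of 43271 genes, 10997 had no read. The SE of a log2 fold change is its size over the root of F, and intervals use the fit's degrees of freedom. DESeq2 1.42.0, its size factors, other filters, the compared groups alone, a replicate block and leaving out each library were the alternatives. Folds against groups at 0 use 3 counts over the group. Levels per kb use the union of exons in GENCODE M21. Promoters are from RefSeq (GRCm38.p6).

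Same-numbered libraries deviated together from their group means (r from 0.31 to 0.85 over 18 pairs, against −0.75 to 0.46 over 36 pairs of different numbers), and the pairing comes from the replicate number in the labels. The members and gene lists were chosen with earlier results of these data known. All 7 members were named, and from each other list the 2 genes with the lowest p in the contrast described. For likeness the 3 tested genes with the highest Pearson r were named. The scripts were tested on simulated data.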

Additional observations from a re-analysis of the deposited data

How the results depend on the processing

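With cytokines no member was called without the block, with no filter, DESeq2, edgeR with DESeq2's size factors, the compared groups only or any single library left out. A minimum of 50 counts in 3 libraries left *Serpina3h* and *Serpina3n* untested, and the other 3 were not called. With the replicate block 1 member, *Serpina3g*, was called (log2 fold change −0.54). At rest, and for the difference of responses, no setting called a member. Only *Serpina3n* could have been called at rest, and no member could have been for the difference, so nothing is read from this. The compared groups alone do not give the difference. Leaving out each library, the log2 fold change with cytokines ran from −0.81 to −0.33 for *Serpina3g* and from 0.04 to 1.05 for *Serpina3i*. It changed sign for *Serpina3f* (−0.18 to 0.36), *Serpina3h* (−0.79 to 0.60) and *Serpina3n* (−0.45 to 0.73). Without replicate 1 of every group, chosen after seeing the data, *Serpina3h* had 0.015 and *Serpina3n* −0.093. In all 4 groups replicate 1 stood apart over all genes. The chi-square per degree of freedom was 78.9 to 230 in its pairs and 20.2 to 35.3 between replicates 2 and 3. Without it 1694 genes were called with cytokines, against 1072, and no member. The cause was not tested. The *Serpina3g* share difference stayed between −12.2 and −9.27 percentage points. Without replicate 1 of every group the bounds or ratios against rest in control and A17.2 cells were 954 and 1336 for *Serpina3f*, 2805 and 1285 for *Serpina3g*, 12.5 and 16.1 for *Serpina3h*, and 36.9 and 74.2 for *Serpina3i*, and 9.63 for *Serpina3n* in control cells. By the longest transcript *Serpina3g* was at 26.9 CPM per kb in stimulated A17.2 cells. Counts over all genes with cytokines moved from 1072 to 1900 by DESeq2, 407 with the compared groups only, 5791 with the block and 304 to 1062 with a library left out, and without cytokines from 1006 to 1692, 358, 5225 and 445 to 1092. Depth limits *Serpina3n*, *Serpina3c* and *Serpina3m*, which had at most 44 reads in a library.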
